A study of Homo sapiens with 12 samples.

Results

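The genes described here encode 6 ligands and 3 secreted antagonists of bone morphogenetic protein (BMP) signalling: the ligands BMP2, BMP4, BMP5, BMP6, BMP7 and GDF6, and the antagonists NOG, CHRD and GREM1. They are 9 of the 20037 protein-coding genes on the placed chromosomes of the RefSeq table, and were chosen by the place of the strongest YTHDF1 peak (by −log10 p and fold), which lay inside BMP4. Chromatin immunoprecipitation followed by sequencing (ChIP-seq) had been performed in H1, a long-established line of human embryonic stem cells, untreated (wild type) or treated with YTHDF1 shRNA (knockdown). Wild-type chromatin had been precipitated for YTHDF1, RNF2 and H2AK119ub and knockdown chromatin for YTHDF1, with 2 replicates in each of 6 groups, inputs included. The replicates had been merged into 1 peak list per antibody and cell state, so no value here has a spread between replicates or a test. The number of reads behind each list was unknown, and the labels do not give how much YTHDF1 the shRNA left.

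BMPs are secreted members of the transforming growth factor beta superfamily that bind paired type I and type II serine/threonine kinase receptors and act through SMAD1, SMAD5 and SMAD9 with SMAD4. Antagonists such as noggin, chordin and gremlin bind the ligands outside the cell and keep them from their receptors. In human embryonic stem cells, added BMP4 drives differentiation towards trophoblast-like or mesodermal fates, and developmental signalling genes of this kind are known Polycomb targets. YTHDF1 binds N6-methyladenosine on RNA. RNF2 is an E3 ubiquitin ligase of Polycomb repressive complex 1 (PRC1), and its product on histone H2A is H2AK119ub.

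The genes fell into 3 patterns. BMP4 combined the strongest YTHDF1 peak of the list with long RNF2 and H2AK119ub domains over the whole gene. Of the others, 7 carried RNF2 and H2AK119ub over an end or the whole of the gene, with weak YTHDF1 peaks or none. Both features also covered the whole gene at GDF6 and NOG, so BMP4 was set apart by the YTHDF1 peak that chose these genes. BMP5 carried a weak YTHDF1 peak and neither PRC1 feature.

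The wild-type lists held 44498 YTHDF1 peaks, 29310 RNF2 peaks and 43331 H2AK119ub islands, and the knockdown list held 226 YTHDF1 peaks. Fold enrichments, −log10 p, −log10 q and scores are the authors' values for each peak and were used within a list. As a check of the cell label, 8 pluripotency genes and 4 lineage genes were examined. The longest RNF2 peak within 10 kb of PAX6, SOX17, GATA4 or HAND1 measured 34.2 to 64.3 kb. At the pluripotency genes the median was 1.24 kb and the highest 23.5 kb, at SOX2, and 6 of the 8 had an RNF2 peak in that window. H2AK119ub did not separate the lists, with 6.72% to 100% of the window covered at pluripotency genes and 72.7% to 100% at lineage genes. Expression was not measured in these data.

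BMP4 (chromosome 14, 53949736 to 53956891, hg38) held 1 YTHDF1 peak, at 53952070 to 53953593, with a fold enrichment of 74.7, a −log10 p of 898 and a −log10 q of 891. These values chose the genes described here and are given as a description. The peak ranked first of 44498 by −log10 p and by fold, with 2.58 times the fold of the next (29.0) and 9.08 times the highest fold outside chromosome 21 (8.23). By width it ranked 191st, at 1524 bp against a list median of 408 bp. Among 236 other YTHDF1 peaks of 1400 to 1700 bp, a range chosen after its width was seen, the median fold was 2.95 and the highest 5.19. The height rests on the merged list alone. The reads of each replicate and of the input at this locus were not analysed here.

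The next peaks in rank differed in kind. Ranks 2 to 5 all lay on chromosome 21, from 371 to 405 kb from the nearest coding gene of the table (LOC102723475 or LOC101927345), with −log10 p values of 555, 359, 225 and 109. The peak of rank 5 overlapped the ribosomal RNA genes RNA45SN2 and RNA28SN2. The sixth was at EGR1, an immediate early transcription factor gene, with a −log10 p of 55.8 and a fold of 7.49 over 1155 bp. RNF2 overlapped none of ranks 2 to 5 and H2AK119ub overlapped ranks 2 and 3, and both lay on the BMP4 and the EGR1 peaks.

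**Figure D1:**
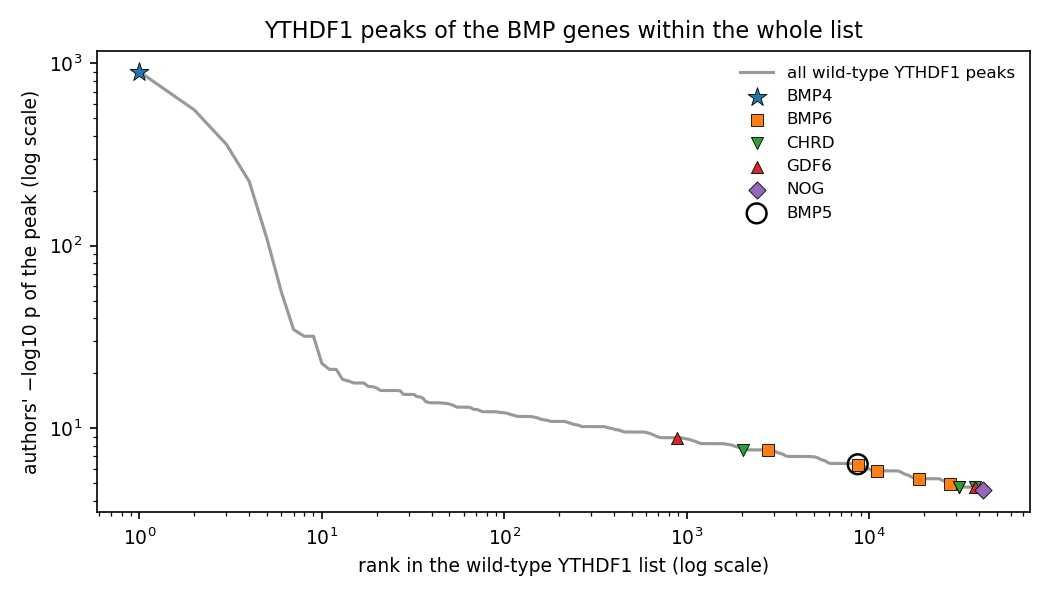
Rank of each wild-type YTHDF1 peak in its list (x, log scale) against the authors' −log10 p (y, log scale), for all peaks (grey line) and for the 14 peaks at the BMP ligand and antagonist genes (symbols). BMP4 stands alone at rank 1, and the next of these genes is GDF6 at rank 888.

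Inside BMP4 the YTHDF1 peak covered 21.3% of the gene, 2334 bp from its lower-coordinate end and 3298 bp from its higher-coordinate end. BMP4 lies on the minus strand, and the RefSeq promoter table gives 3 transcription starts for it, at 53955050, 53954488 and 53953395. All 3 lie inside the gene, and none is at its higher-coordinate end (53956891), which was 3954 bp from the YTHDF1 summit. The third start lay inside the peak and is called the internal start below. The YTHDF1 summit, at 53952937, was 458 bp downstream of this start, 1551 bp downstream of the second and 2113 bp downstream of the first, and the upper edge of the peak stopped 895 bp short of the second. The summit divided the peak into 867 bp on the lower and 656 bp on the higher side. The tables used here give no exons, so the peak was not assigned to an exon or intron.

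The bases just before the internal start are shown because the upper edge of the peak falls among them. They are the 250 bases upstream of 53953395 (RefSeq, GRCh38.p14, chr14:53953396-53953645, minus strand, 5′ to 3′), with the 198 bases inside the YTHDF1 peak in capitals.
BMP4 internal start: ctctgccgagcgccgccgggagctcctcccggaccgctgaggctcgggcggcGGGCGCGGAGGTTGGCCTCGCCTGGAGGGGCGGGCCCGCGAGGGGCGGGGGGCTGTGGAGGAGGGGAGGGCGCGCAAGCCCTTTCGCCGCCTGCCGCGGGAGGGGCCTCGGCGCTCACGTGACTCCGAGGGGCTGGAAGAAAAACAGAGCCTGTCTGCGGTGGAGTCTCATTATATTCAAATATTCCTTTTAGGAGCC
All 250 bases were under RNF2 and H2AK119ub. They held 27 CpG dinucleotides and a GC share of 70.4%. The median over 15843 coding genes, each by its outermost tabulated start, was 17 CpG and 62%. Before the first BMP4 start there were 25 CpG and 63.6% GC, and before the second 17 CpG and 56%.

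RNF2 and H2AK119ub spread far beyond the YTHDF1 peak at this gene. The RNF2 peak (53941637 to 53966705, 25.1 kb, 35.7-fold) extended 8.10 kb past the lower and 9.81 kb past the higher end of BMP4. The H2AK119ub island (53942201 to 53970200, 28 kb, score at the cap of 1000) extended 7.54 and 13.3 kb past them. The YTHDF1 peak took up 6.08% of the RNF2 domain. The RNF2 summit, at 53952843, lay 94 bp from the YTHDF1 summit and 1328 bp from the middle of the RNF2 domain. Of 140 overlapping pairs of a YTHDF1 peak and an RNF2 peak of 20 to 30 kb, BMP4 included, 2 had summits this close, and the median distance was 5778 bp. In the 10 of these pairs whose YTHDF1 peak had a −log10 q of at least 4, the same 2 were this close and the median was 4811 bp. Over all 5679 overlapping pairs, with RNF2 peaks of any length, 18.3% were this close and the median was 359 bp. These comparisons were chosen after the 94 bp had been seen, and no test was made of them. A second RNF2 peak of 1.35 kb and 3.42-fold lay just below the domain.

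**Figure D2:**
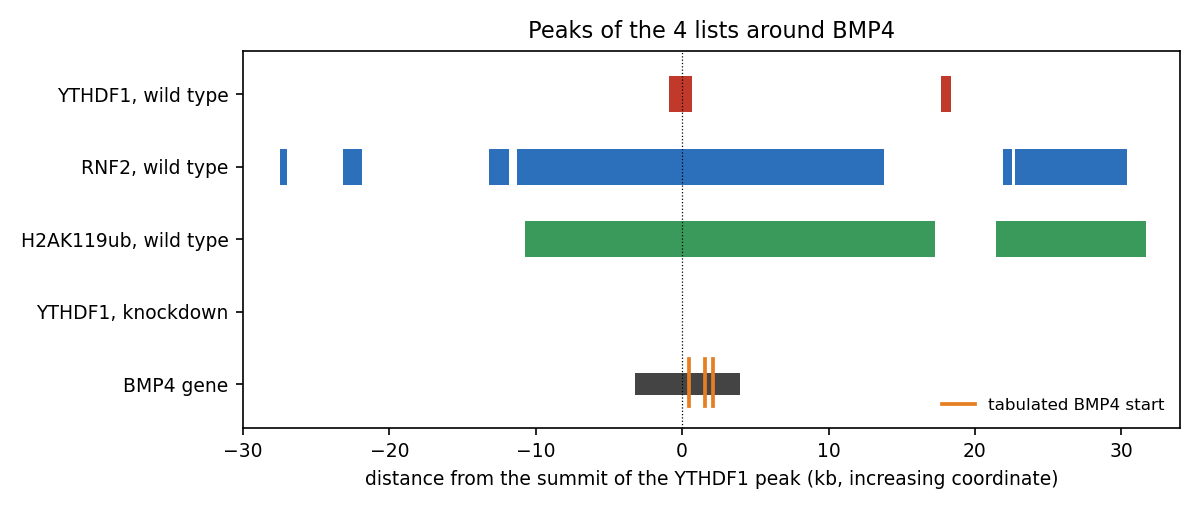
Peaks of the 4 lists (bars, 1 row per list) around BMP4, with distance from the YTHDF1 summit in kb on the x axis, the gene as a dark bar and its 3 tabulated starts as orange lines. The 1524 bp YTHDF1 peak sits over the lowest start, under an RNF2 domain of 25.1 kb and an H2AK119ub island of 28 kb, and the knockdown row is empty.

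The nearest other YTHDF1 peak on the higher side of the BMP4 peak was 17.0 kb away (2.94-fold, −log10 q 1.87), beyond the end of the H2AK119ub island. The nearest on the lower side was 105.5 kb away (3.23-fold, −log10 q 2.49). In the knockdown list the nearest peak of any kind was 2952 kb away, at 56905404 to 56905807 (3.52-fold).

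No knockdown YTHDF1 peak lay within 10 kb of any of the 9 genes, where 1.14% of coding genes had one. The lowest −log10 q was 4.01 in the knockdown list and 1.502 in the wild-type list, so no peak with a −log10 q as low as most of those described here is listed for knockdown cells. Only the BMP4 peak and 1 of the 2 GDF6 peaks passed a −log10 q of 4 in wild-type cells. Of the 1062 wild-type peaks that passed it, 38 (3.58%) overlapped a knockdown peak. Of the 12 strongest wild-type peaks 5 did, among them ranks 2 and 4 on chromosome 21, EGR1 and ACAP2, and the BMP4 peak was among the 7 that did not. The closest knockdown peak to any of the 9 genes was 41.1 kb from CHRD (6.54-fold, −log10 q 21.96). Differences in depth between the lists cannot be told apart from differences in signal.

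YTHDF1 peaks lay within 10 kb of 6 of the 9 genes, and 65.7% of coding genes had such a peak. Since a YTHDF1 result led to the choice of these genes, this count is a description. At a −log10 q of at least 4 the count was 2 of 9, BMP4 and GDF6, where 5.48% of coding genes had one. BMP4 was in this count by the choice of the genes, and the GDF6 peak was just above the limit (−log10 q 4.13). The 14 peaks comprised 1 at BMP4, 1 at BMP5, 5 at BMP6, 2 at GDF6, 1 at NOG and 4 at CHRD. The 13 outside BMP4 ranged from 2.74-fold to 3.78-fold (median 2.95, list median 2.89) and from 270 to 697 bp in width. By −log10 p they lay from the 5.05th percentile of the list, at NOG, to the 97.9th, at GDF6, and the strongest peaks of CHRD and BMP6 were at the 94.2nd and 93.7th. The median share of the gene and its flanks under YTHDF1 peaks was 1.08% over the 9 genes and 0.686% without BMP4. Over all coding genes it was 0.790%.

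Among the other ligand genes, GDF6 had the next strongest YTHDF1 peak. GDF6 (chromosome 8, 96142333 to 96160806), which encodes a growth and differentiation factor of the BMP class active in joint and eye development, held peaks at 96144650 to 96145343 (3.78-fold, −log10 q 4.13) and at 96147149 to 96147845 (2.80-fold, −log10 q 1.58). Both lay inside the gene and inside its RNF2 and H2AK119ub domains. By −log10 p the stronger ranked 888th in the list. BMP6 (chromosome 6, 7726099 to 7881728), a ligand known for its control of hepcidin and iron balance, held 5 YTHDF1 peaks from 2.81-fold to 3.49-fold. All 5 lay inside the gene, 6.80 kb or more from an end, and none overlapped RNF2 or H2AK119ub. The lowest in coordinate, at 7732895 to 7733237, lay just above a small RNF2 peak at 7732062 to 7732679 (2.92-fold). The strongest, at 7734881 to 7735343, had its summit 9023 bp downstream of the start.

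BMP5 (chromosome 6, 55753653 to 55875590), a ligand involved in skeletal patterning, held 1 YTHDF1 peak deep inside the gene, at 55811528 to 55811936 (3.20-fold, −log10 q 2.49), with its summit 63794 bp downstream of the start. BMP2 and BMP7 had no YTHDF1 peak in the window. The nearest was 42.6 kb away at BMP2 (2.95-fold) and 10.9 kb away at BMP7 (2.81-fold, −log10 q 1.58), just outside the limit of 10 kb.

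Of the antagonist genes, CHRD had a YTHDF1 peak near its start. CHRD (chromosome 3, 184380054 to 184390739), which encodes chordin, held 4 peaks in the window, of which the strongest, at 184380298 to 184380816 (3.51-fold, −log10 q 3.24), began 244 bp inside the gene. Its summit was 472 bp downstream of the start. The BMP4 summit was 458 bp downstream of the nearest of 3 tabulated starts, and 1551 and 2113 bp downstream of the others. The 2 peaks differed in fold by a wide margin, and a shared position was not tested. The other 3 CHRD peaks were each 2.80-fold or 2.81-fold with a −log10 q of 1.58. All 4 overlapped the H2AK119ub island and 3 also overlapped RNF2. Of these 3, the peak at 184386940 to 184387277 only touched the edge of a small RNF2 peak (3.78-fold) that ended at 184386941. NOG (chromosome 17, 56593699 to 56595611), which encodes noggin, had 1 peak of 2.74-fold, 8.46 kb above the gene and outside both PRC1 features. It was the weakest of the 14, and the one nearest to the 10 kb limit on the inner side. GREM1 had none, and its nearest lay 56.0 kb away (2.82-fold).

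Of the 14 peaks, 6 overlapped both RNF2 and H2AK119ub by 1 bp or more, 1 overlapped H2AK119ub alone and 7 overlapped neither. The 6 belonged to BMP4, GDF6 and CHRD, so 3 of 9 genes had YTHDF1 on both PRC1 features, where 28.4% of coding genes did. The share is close to that of the background.

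**Figure D3:**
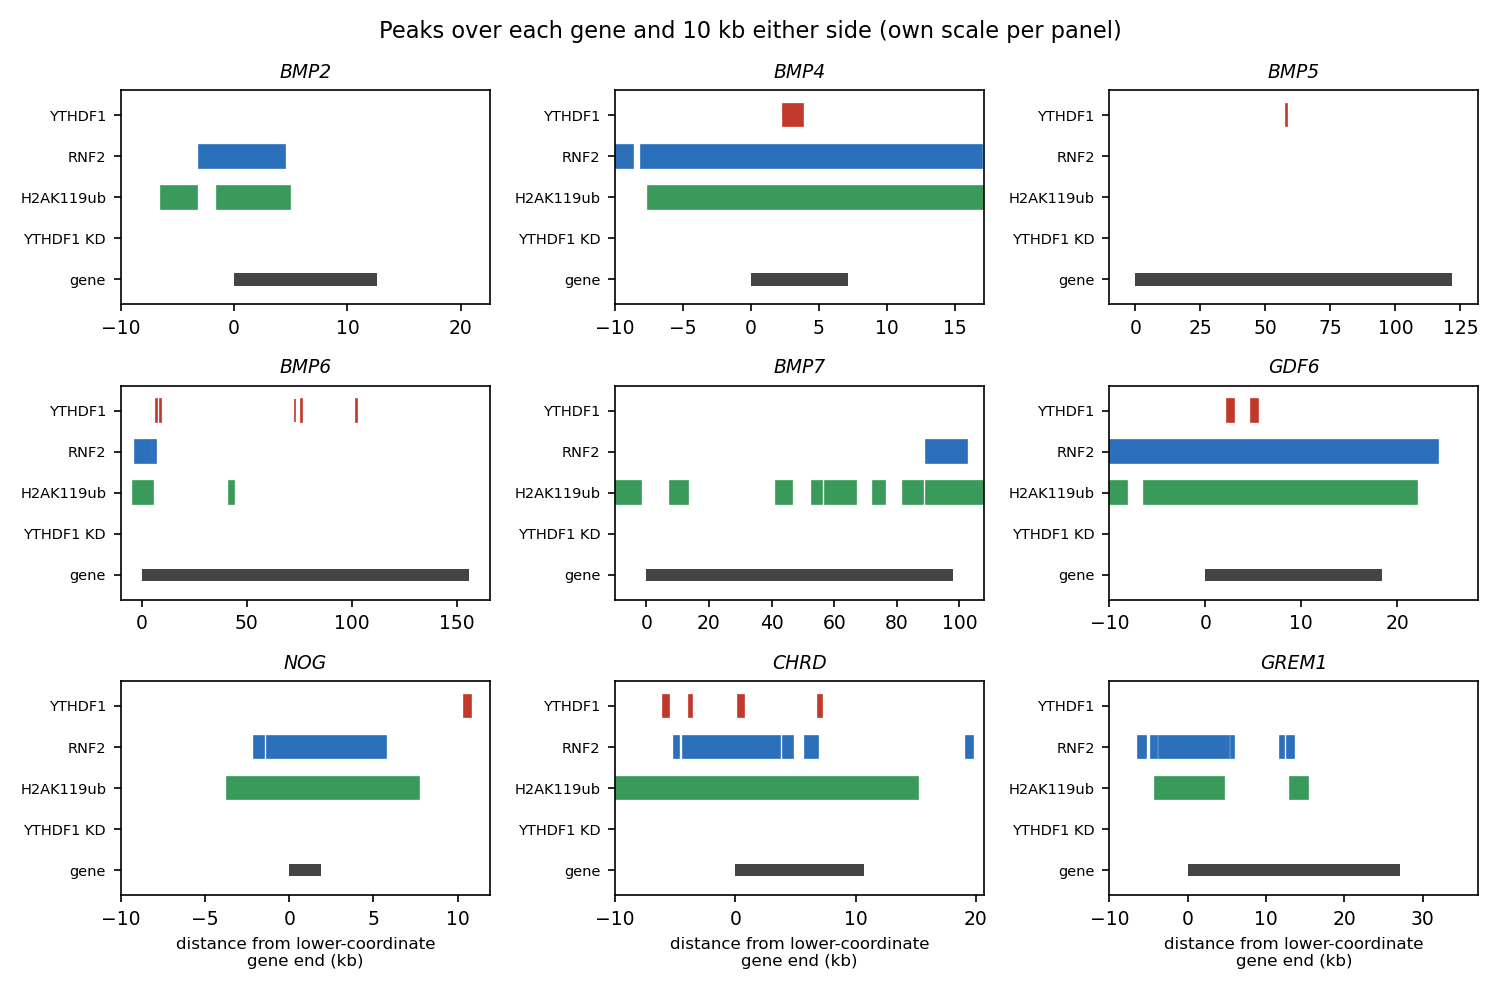
Peaks of the 4 lists (rows) over each of the 9 genes and 10 kb either side, with distance from the lower-coordinate gene end in kb on the x axis and a separate scale in each panel. RNF2 and H2AK119ub cover 1 end or the whole of every gene except BMP5, and the YTHDF1 peaks of BMP6 overlap neither.

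RNF2 was present at 8 of the 9 genes, where 75.9% of coding genes had a peak within 10 kb, so presence alone was near the background. A score at the cap of 1000, which corresponds to a −log10 p of at least 100, was reached at 6 of 9 genes, where 5.91% of coding genes had such a peak. The median of the longest RNF2 peak per gene was 8054 bp, against 1643 bp over all coding genes, and the median share of the window under RNF2 was 27.2% against 3.05%. Without BMP4 these medians were 7860 bp and 25.4%.

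GDF6 and BMP4 had the longest RNF2 domains. At GDF6 a 38.9 kb peak of 41.0-fold (96127710 to 96166606) covered the whole gene and 89.1% of the window, and at BMP4 RNF2 covered 97.3%. The domains of the other ligand genes were shorter and lay at 1 end. The RNF2 peak of BMP7 (chromosome 20, 57168753 to 57266641), a ligand needed for kidney and eye development, was 12.9 kb long and 11.3-fold and covered the higher-coordinate end. That of BMP2 (chromosome 20, 6767686 to 6780246), a ligand with roles in bone and heart formation, was 7.67 kb long and 8.08-fold and covered the lower-coordinate end. That of BMP6 was 7.46 kb long and 19.8-fold, and its summit was 1009 bp downstream of the start.

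Of the antagonist genes, the main RNF2 peak was 21.1-fold over 9.03 kb at GREM1 (chromosome 15, 32718004 to 32745106), 16.9-fold over 8.05 kb at CHRD and 15.7-fold over 7.09 kb at NOG, where it covered the whole short gene. The ligand gene BMP6 lay within this range of fold and length. Small RNF2 peaks of 2.84-fold to 3.78-fold surrounded the main peak, 5 at GREM1, 4 at CHRD and 1 at NOG. The summits of the main peaks lay downstream of the nearest tabulated start by 614 bp at CHRD and 710 bp at GREM1, and by 552 bp at BMP4. Ordered by the fold of the strongest RNF2 peak, the genes ran GDF6, BMP4, GREM1, BMP6, CHRD, NOG, BMP7, BMP2 and BMP5, the last with none. With 1 merged list, no spread was available to separate neighbours in this order.

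H2AK119ub accompanied RNF2 at the same 8 genes, and 81.6% of coding genes had an island within 10 kb. An island with a score at the cap of 1000 was present at all 8, where 28% of coding genes had one. Each of these islands lay on the main RNF2 peak. They measured 28.4 kb at GDF6, 28 kb at BMP4, 26.8 kb at CHRD, 20.2 kb at BMP7, 11.4 kb at NOG, 9.8 kb at BMP6, 8.8 kb at GREM1 and 6.4 kb at BMP2. The island exceeded the RNF2 peak most at CHRD, where 26.8 kb of H2AK119ub stood beside 8.05 kb of RNF2, and it was shorter than the RNF2 peak at GDF6, GREM1 and BMP2.

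BMP7 and BMP6 differed in how H2AK119ub ran through the gene body. BMP7 had 8 islands in its window, covering 51.9% of it, against 11.0% under RNF2, and 7 of the 8 overlapped no RNF2 peak. BMP6, which is longer, had 2 islands covering 7.06%, of which the second (7767601 to 7770200) lay 41.5 kb inside the gene without RNF2. Over the 9 genes the median share under H2AK119ub was 51.9%, and without BMP4 it was 40.7%. Over all coding genes it was 15.5%.

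**Figure D4:**
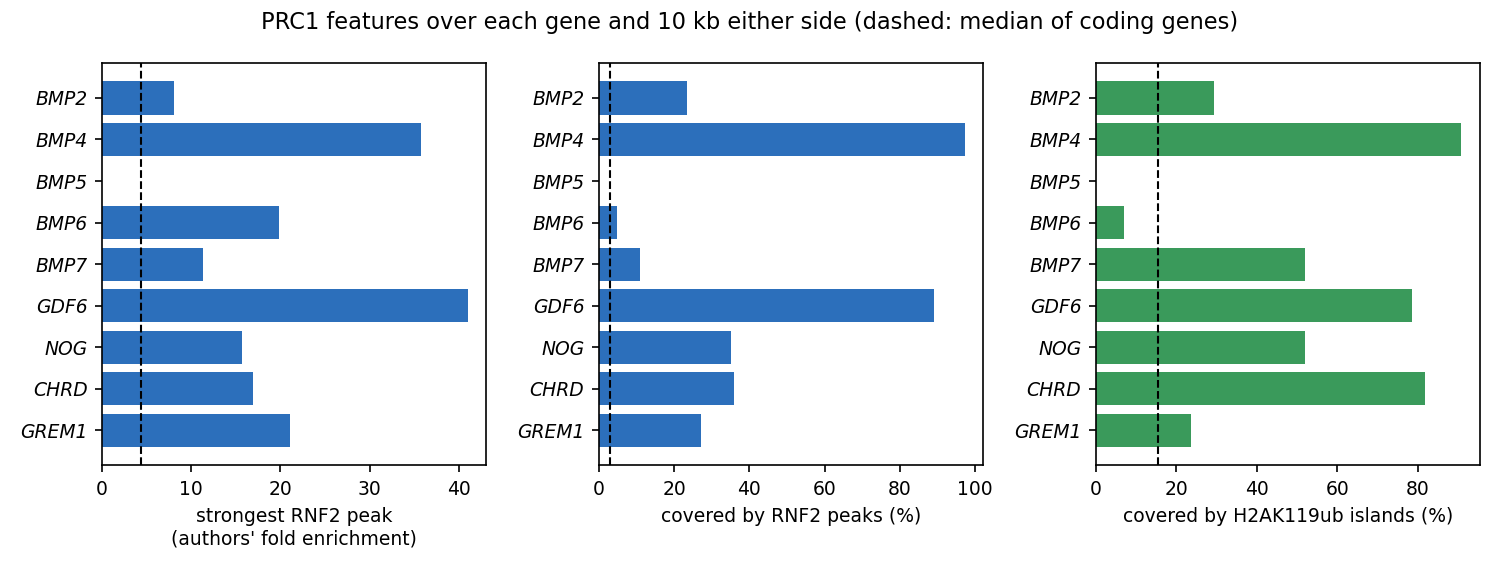
Fold of the strongest RNF2 peak (left), percent of the gene and 10 kb either side under RNF2 peaks (middle) and under H2AK119ub islands (right) for each of the 9 genes (bars), with the median of 20037 coding genes as a dashed line. All genes except BMP5 exceed the median RNF2 fold of 4.40, and BMP6 and BMP5 fall below the median H2AK119ub share of 15.5%.

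BMP5 was the exception in both PRC1 features. Its nearest RNF2 peak was 174 kb away and its nearest H2AK119ub island 173 kb away (score 19.4). Base composition before the start was then compared. PRC1 is known to occupy CpG-rich promoters, but a link with base composition at these genes was not tested. BMP4, BMP5, BMP6, CHRD and GREM1 were matched by symbol in the RefSeq promoter table (5 of 9, with 8 starts), and BMP2, BMP7, GDF6 and NOG were not. The 250 bases before the start of BMP5 are shown beside those of BMP6, CHRD and the first start of GREM1, because the CpG dinucleotides, in capitals, set BMP5 apart. All are from RefSeq, GRCh38.p14, and are written 5′ to 3′, for BMP5 chr6:55875591-55875840 on the minus strand, and on the plus strand for BMP6 chr6:7725849-7726098, CHRD chr3:184379804-184380053 and GREM1 chr15:32717754-32718003.
BMP5: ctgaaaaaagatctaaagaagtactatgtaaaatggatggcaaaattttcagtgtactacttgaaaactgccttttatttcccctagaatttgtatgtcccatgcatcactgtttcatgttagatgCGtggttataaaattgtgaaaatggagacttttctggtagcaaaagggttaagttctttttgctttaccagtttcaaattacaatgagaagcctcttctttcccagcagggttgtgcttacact
BMP6: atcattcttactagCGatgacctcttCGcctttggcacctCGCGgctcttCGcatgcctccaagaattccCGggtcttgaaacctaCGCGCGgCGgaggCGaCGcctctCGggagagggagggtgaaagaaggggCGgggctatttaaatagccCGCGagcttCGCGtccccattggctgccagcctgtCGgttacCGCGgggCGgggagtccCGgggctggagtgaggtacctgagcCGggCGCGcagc
CHRD: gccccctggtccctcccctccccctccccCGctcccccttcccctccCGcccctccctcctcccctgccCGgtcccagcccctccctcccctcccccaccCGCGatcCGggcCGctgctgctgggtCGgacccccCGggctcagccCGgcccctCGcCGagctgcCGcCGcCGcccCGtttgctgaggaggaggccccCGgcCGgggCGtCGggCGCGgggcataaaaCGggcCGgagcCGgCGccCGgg
GREM1: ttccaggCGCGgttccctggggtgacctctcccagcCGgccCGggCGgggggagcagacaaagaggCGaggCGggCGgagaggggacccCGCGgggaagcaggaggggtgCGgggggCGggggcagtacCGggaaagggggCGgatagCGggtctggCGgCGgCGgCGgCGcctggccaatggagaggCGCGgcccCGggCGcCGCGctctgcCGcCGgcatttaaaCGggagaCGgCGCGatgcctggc
BMP5 had 1 CpG in 250 bases, BMP6 had 26, CHRD 27 and GREM1 32. The GC share was 35.6% at BMP5, 64.4% at BMP6, 81.6% at CHRD and 76.8% at GREM1. The ratio of observed to expected CpG (the count of CpG times the length, divided by the product of the counts of C and G) was 0.127 at BMP5, above 8.13% of coding genes. It was 1.01 at BMP6, 0.715 at CHRD and 0.931 at GREM1. The 3 BMP4 starts had 0.898, 0.983 and 1.02, so the internal start inside the YTHDF1 peak was the lowest of them. The median over 15843 coding genes, each by its outermost start, was 0.735.

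The 7 starts of BMP4, BMP6, CHRD and GREM1 lay wholly under RNF2 and H2AK119ub over their 250 bases, and the BMP5 start under neither. The share of all coding genes with these bases wholly covered was not computed, and the shares below are for peaks within 10 kb. The 7 belong to 4 genes, and starts of 1 gene shared an RNF2 peak, so they are not separate cases. Among coding genes in the lowest of 4 equal groups by this ratio (0.377 or less) 44.5% had an RNF2 peak within 10 kb, and in the highest group 92.5%. For a YTHDF1 peak the shares were 53.5% and 71.4%. Of the 8 starts, only the internal start of BMP4 had YTHDF1 over any of its 250 bases. That peak chose the genes, and the share of all coding genes with YTHDF1 over these bases was not computed. The letters GGCGCC, the same on both strands and part of known SMAD-binding elements, occurred before 1 of the 3 BMP4 starts, before the CHRD start and, 2 times, before the first GREM1 start, and in 21.2% of coding genes. From the lowest to the highest of the 4 groups by CpG ratio, that share was 2.15%, 16.5%, 30.5% and 35.7%. GGCGCC was not among the 250 bases before the internal start of BMP4.

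**Figure D5:**
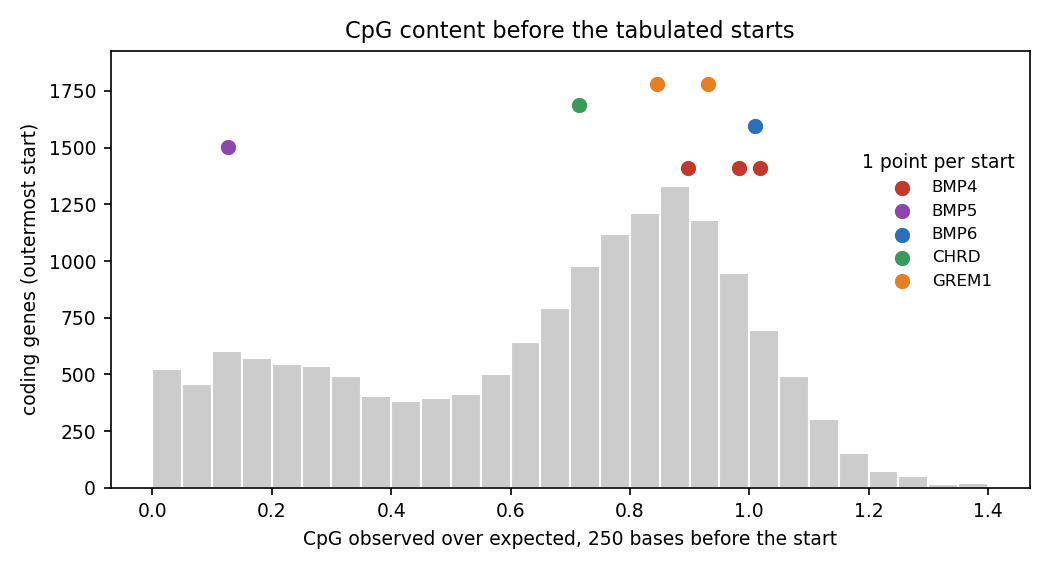
Ratio of observed to expected CpG in the 250 bases before the start for 15843 coding genes (bars, number of genes, values above 1.4 placed in the last bar) and for the 8 tabulated starts of 5 BMP genes (points, whose height carries no value). BMP5, at 0.127, is far below the other points, which lie from 0.715 to 1.02.

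Other genes of the pathway were examined by role, 44 in all, every one matched. RNF2 was within 10 kb of 40, where 75.9% of coding genes had a peak, and H2AK119ub was within 10 kb of 40, where 81.6% had an island. An RNF2 peak at the score cap was present at 5 of 44, where 5.91% of coding genes had one. YTHDF1 was at 25 of 44, where 65.7% of coding genes had a peak, and the difference was not tested. At a −log10 q of at least 4 it was at 1, where 5.48% of coding genes had such a peak, and a knockdown peak was at 0, where 1.14% had one. An H2AK119ub island at the score cap was present at 18 of 44, where 28% of coding genes had one.

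Among 8 other ligand genes, 5 had RNF2 and 3 had YTHDF1. GDF7, a ligand of the dorsal neural tube, had an RNF2 peak of 25.3-fold over 15.3 kb and YTHDF1 at 3.23-fold. BMP3 had RNF2 of 9.52-fold over 4.05 kb and no YTHDF1, and GDF5, a joint-forming ligand, had YTHDF1 at 3.44-fold with RNF2 of 6.61-fold. BMP10 and BMP15, known for roles in heart and oocyte, lacked both PRC1 features, and GDF2 lacked RNF2. BMP5 was thus 1 of 3 ligand genes examined with neither feature.

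Of 13 other extracellular antagonists and modulators, 12 had RNF2, 11 H2AK119ub and 8 YTHDF1, with RNF2 at the score cap at 0. DAND5, a Nodal and BMP antagonist of left-right patterning, had RNF2 over 11.5 kb at 9.87-fold, and BMPER had 7.995 kb at 8.26-fold. FSTL3 and CHRDL2 had the strongest YTHDF1 of this list, at 3.65-fold and 3.37-fold. The strongest RNF2 peak of the list had a median of 6.29-fold, below the 15.7-fold of NOG, the lowest of the 3 antagonists described above.

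All 10 receptors and co-receptors and all 4 SMAD transducers had RNF2 and H2AK119ub, with RNF2 at the score cap at 1 and 0 of them. The co-receptor genes RGMA and ENG shared the highest YTHDF1 fold of their list, 3.65, and RGMB had the longest RNF2 peak, 7.72 kb. Of the SMAD transducers, SMAD9 had YTHDF1 at 3.37-fold, SMAD4 at 2.88-fold, and SMAD5 had the longest RNF2 peak, 5.35 kb. Among the inhibitory genes, SMAD7 had the only YTHDF1 peak of the 44 with a −log10 q of at least 4 (3.76-fold, −log10 q 4.32), with RNF2 over 7.19 kb. SMAD6 had YTHDF1 at 2.95-fold and RNF2 over 6.01 kb.

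The 6 transcriptional targets all had RNF2 and an H2AK119ub island at the score cap. MSX1 and MSX2, homeobox genes of limb and craniofacial development, had RNF2 peaks of 124.8-fold over 40.8 kb and 76.5-fold over 27.9 kb, both above GDF6 and BMP4 in fold. ID2 had 17.6-fold over 11.8 kb and YTHDF1 at 3.36-fold. ID1 had YTHDF1 at 2.66-fold, with an H2AK119ub island of 179.8 kb beside an RNF2 peak of 5.45 kb.

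Coding genes most like BMP4 were sought by the distance over percentile ranks of 4 measures in the gene and its flanks: the strongest YTHDF1 −log10 p, the strongest RNF2 fold and the base pairs under RNF2 and under H2AK119ub. Over 20037 genes the 5 closest were SLC32A1, SHMT2, SOX1, HOXA13 and SFTPC, at 1.69 to 4.06 percentile points. RNF2 covered 22.3 to 26.2 kb at these genes and 26.4 kb at BMP4. The strongest YTHDF1 peaks there were 4.07-fold to 4.35-fold against 74.7-fold at BMP4, since percentile ranks compress the top of the list. The likeness in domains was fixed by the way these genes were chosen, and the YTHDF1 rank of BMP4 by the choice of the BMP genes, so both are descriptions.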

How the data were processed

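ChIP-seq peak lists of H1 cells were analysed, with samples grouped by title. The submitters' processing notes name SICER 1.1 and MACS2 2.1.0 beside Bowtie2 2.2.5, Trimmomatic 0.35, Picard and SAMtools 1.3.1, with build hg38 and no roles. The authors merged replicates, per the labels. Which caller made which list is not given in the sources used here. Deposited lists of YTHDF1 and RNF2 give per peak a fold enrichment (ratio), a −log10 p, a −log10 q, a summit offset (other) and a score, which is 10 times the −log10 p capped at 1000. The deposited H2AK119ub score has no stated scale, and its island ends were read as last bases.

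A peak counted for a gene when it overlapped the gene or 10 kb either side by 1 bp. Gene positions, starts and sequences came from RefSeq (GRCh38.p14). Strand was known only where a start was tabulated. Overlap functions (Python 3.11.15, numpy 2.4.6, pandas 2.3.3) were tested on simulated intervals. Depth was unknown, so no interval or test is given.

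The genes, lists and alternatives were chosen with earlier results of these data known. Named genes were the 9 genes, in each of 6 role lists the 2 with the strongest YTHDF1 and the 2 with the longest RNF2 peak, the 5 genes most like BMP4 and the 5 peaks next in rank. The marker genes PAX6, SOX17, GATA4 and HAND1 came from a list for the check of the cell label. SOX2, from the same check, and BMP10, BMP15, GDF2 and ACAP2 are outside this rule and were chosen after their values were seen.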

Additional observations from a re-analysis of the deposited data

How the results depend on the processing

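Of 55 values under alternatives (windows of 0, 2 and 50 kb, midpoint or 50% overlap, the better-scoring 50% of a list, a background of genes in the same range of lengths, other ranks and 300 promoter bases), 49 stayed within 1.5 times the value under the main setting, and 6 did not. The background of genes in the same range of lengths could not change a count of BMP genes. Only the share of coding genes beside each count was recomputed for it, and those unchanged counts are among the 49. With 50 kb either side, 1 gene (CHRD) had a knockdown YTHDF1 peak in place of 0, where 2.42% of coding genes had one. In that window the median share covered fell to 7.53% for RNF2 and 18.6% for H2AK119ub. The median share covered by YTHDF1 was 1.08% as reported, 0.335% over the gene body alone and 0.288% with the better-scoring 50% of peaks. By width the BMP4 peak ranked 191 in place of 1. RNF2 and H2AK119ub were each at 8 of 9 genes under every alternative run. The share of coding genes with a peak ran from 61.5% (better-scoring 50% of the list) to 85.1% (50 kb either side) for RNF2. For H2AK119ub it ran from 71.4% to 87.9% under the same 2 alternatives. With 50 kb either side both counts were near the background. No paired analysis was possible because the replicates of each group had been merged into 1 list. For the same reason no replicate could be left out, and without read totals the knockdown list does not show how much signal remained below its threshold.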
